A study of Homo sapiens with 8 samples.

Results

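The clustered protocadherin genes are 53 protein-coding genes in a row on chromosome 5 (hg38), taken as those whose symbol starts with PCDHA, PCDHB or PCDHG and ends in digits, of 19974 protein-coding genes on chromosomes 1 to 22 and X. The alpha cluster holds 15 of them (PCDHA1 to PCDHAC2, chr5:140786140-141012347), the beta cluster 16 (PCDHB1 to PCDHB15, chr5:141051374-141249365) and the gamma cluster 22 (PCDHGA1 to PCDHGC5, chr5:141330514-141512975). The binding of 2 heterochromatin proteins, HP1a (the product of CBX5) and HP1b (the product of CBX1), was mapped there by ChIP-seq, which sequences the DNA held by an antibody. The cells were MCF10A, a human breast epithelial line that forms no tumours, with no treatment in any library.

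There were 4 groups with 2 libraries each: HP1b ChIP in cells with an HP1a knockdown, HP1b ChIP in wild-type cells, HP1a ChIP in cells with an HP1b knockdown, and HP1a ChIP in wild-type cells. Each ChIP was thus set against cells depleted of the other paralog, so the knockdown itself could not be checked from these lists. The method of knockdown is not given in the sources used here, and nothing says that the replicates were separate cultures, so the p-values measure the spread between libraries only. The deposited values are lists of broad peaks. They covered 118 and 165 Mb in the HP1b libraries from HP1a-knockdown cells, 158 and 157 Mb in wild-type HP1b, 9.89 and 9.68 Mb in the HP1a libraries from HP1b-knockdown cells, and 69.8 and 60.4 Mb in wild-type HP1a. The read depth behind the lists is unknown, and a stretch without a peak is not shown to lack HP1.

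HP1 proteins bind a methylated lysine on the tail of histone H3 and are a hallmark of heterochromatin, the compact and mostly silent part of the genome. Clustered protocadherins are cell-surface adhesion proteins, best known for giving single neurons different surface identities. Each alpha and gamma gene has its own promoter and variable first exon, which encodes the outer part of the protein and is spliced to constant exons at the end of its cluster, whereas each beta gene is a single exon. The last genes of the alpha and gamma clusters (PCDHAC1, PCDHAC2, PCDHGC3, PCDHGC4 and PCDHGC5) are the C-type genes, which neurons use more uniformly than the rest. Because alpha and gamma genes share their ends, every gene was also measured over its own interval, from its start to the start of the next member. For beta genes and the last gene of a cluster, the own interval was the whole gene.

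Most promoters of the clusters carry a conserved element with the core CGCT, and promoters are shown for 5 genes on which the results below turn. They are PCDHA10 (covered in all 4 wild-type libraries), PCDHB5 (the beta gene most covered by wild-type HP1a), PCDHGA3 and PCDHGB3 (gamma genes whose HP1b coverage did not overlap between HP1a-knockdown and wild-type libraries) and PCDHGC4 (the C-type gene most covered by wild-type HP1a). RefSeq (GRCh38.p14) gave promoters for 47 of the 53 genes, all on the plus strand, each reaching from 250 bases before the gene start to 50 bases after it. PCDHA3, PCDHA13, PCDHB6, PCDHB11, PCDHGA12 and PCDHGC5 were not matched. Each sequence is given 5′ to 3′, and capitals mark TGNCGCT, where N is any base, on either strand.
PCDHA10, chr5:140855647-140855946, plus strand: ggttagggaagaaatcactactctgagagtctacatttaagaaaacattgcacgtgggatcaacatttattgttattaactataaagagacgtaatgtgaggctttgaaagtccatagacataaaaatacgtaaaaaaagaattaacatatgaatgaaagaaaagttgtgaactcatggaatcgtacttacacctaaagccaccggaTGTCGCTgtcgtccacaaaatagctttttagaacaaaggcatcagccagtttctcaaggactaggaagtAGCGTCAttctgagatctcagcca
PCDHB5, chr5:141134956-141135255, plus strand: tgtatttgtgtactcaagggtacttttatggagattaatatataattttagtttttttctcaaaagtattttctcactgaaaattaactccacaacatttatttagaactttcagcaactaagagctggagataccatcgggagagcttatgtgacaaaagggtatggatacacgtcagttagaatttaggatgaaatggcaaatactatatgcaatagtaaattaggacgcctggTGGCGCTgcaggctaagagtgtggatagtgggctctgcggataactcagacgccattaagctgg
PCDHGA3, chr5:141343579-141343878, plus strand: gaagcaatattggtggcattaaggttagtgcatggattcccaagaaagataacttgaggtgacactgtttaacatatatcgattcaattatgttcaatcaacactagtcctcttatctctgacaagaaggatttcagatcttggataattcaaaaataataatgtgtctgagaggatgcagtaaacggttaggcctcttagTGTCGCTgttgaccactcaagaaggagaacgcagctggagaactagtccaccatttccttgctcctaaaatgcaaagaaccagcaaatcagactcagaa
PCDHGB3, chr5:141369992-141370291, plus strand: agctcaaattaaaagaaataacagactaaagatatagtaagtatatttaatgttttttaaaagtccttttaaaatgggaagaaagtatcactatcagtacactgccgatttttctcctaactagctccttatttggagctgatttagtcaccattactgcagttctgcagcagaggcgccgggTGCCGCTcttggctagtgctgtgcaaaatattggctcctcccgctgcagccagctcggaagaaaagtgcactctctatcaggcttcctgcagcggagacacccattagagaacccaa
PCDHGC4, chr5:141484780-141485079, plus strand: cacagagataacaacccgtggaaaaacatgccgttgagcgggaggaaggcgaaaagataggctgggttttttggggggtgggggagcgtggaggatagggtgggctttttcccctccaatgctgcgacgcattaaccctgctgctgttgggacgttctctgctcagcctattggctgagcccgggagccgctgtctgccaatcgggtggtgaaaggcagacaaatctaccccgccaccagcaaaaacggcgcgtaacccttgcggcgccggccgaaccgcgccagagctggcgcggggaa

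TGNCGCT was chosen after the sequences had been read, so its counts are a description. It occurred on either strand in 32 of the 47 promoters, against 10.9% of all 35116 promoters in the table. The share was 11 of 13 for alpha, 13 of 14 for beta and 8 of 20 for gamma. The 4 letters CGCT, which lie inside TGNCGCT, occurred in 46 of 47, against 70.0% of all promoters. On the gene's own strand, the first TGNCGCT began a median of 58 bases before the gene start in the 30 genes that had it there. The beta genes and the numbered alpha genes thus nearly all share the longer letters, while PCDHGC4 and most gamma promoters do not hold them in this window.

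HP1b covered more of the protocadherin clusters in HP1a-knockdown cells than in wild-type cells. The alpha region was 9.68 and 11.3% covered in the HP1a knockdown, against 6.65 and 5.77% in wild type. The beta genes were 27.3 and 38.2% covered in the knockdown, against 22.1 and 17.8% in wild type. The gamma region was 27.6 and 33.6% covered in the knockdown, against 14.4 and 17.1% in wild type. In all 3 clusters both knockdown libraries lay above both wild-type libraries, while HP1b peaks covered 3.91 and 5.44% of the genome in the knockdown, against 5.22 and 5.19% in wild type. The 3 clusters together were 21.3 ± 3.24% covered in the knockdown and 11.8 ± 0.0130% in wild type (SD, n = 2 each). The exact permutation p was 0.3333, the smallest that 2 libraries against 2 can give.

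The test was limma's moderated test on the log2 of covered bases per Mb of all covered bases in a library, over 14157 features, which were windows of 200 kb and the clusters, with Benjamini-Hochberg adjustment over all of them. The gamma cluster rose by a log2 change of 1.06 ± 0.22 (SE, adjusted p = 0.00188), and the alpha cluster by 0.82 ± 0.26 (adjusted p = 0.0331), both in limma with n = 2 per group. The beta cluster had a log2 change of 0.76 ± 0.27 and missed the threshold (limma, adjusted p = 0.0537). Of all features in that fit 5.56% were called higher and 9.16% lower, and the median feature had a log2 change of -0.12. Without wild-type replicate 1 the gamma cluster missed the threshold (limma, adjusted p = 0.0898). The alpha cluster missed it without HP1a-knockdown replicate 1 (adjusted p = 0.0723), wild-type replicate 1 (adjusted p = 0.172) or wild-type replicate 2 (adjusted p = 0.358). Neither call held in a fit of all 8 libraries (0 of 14157 features called, 1371 at an unadjusted p below 0.05) or with stricter peaks. No feature at all was called at −log10 p of at least 4 (0 of 12951) or −log10 q of at least 2 (0 of 10716). The alpha change was 0.46 and 0.0024 there, in that order, while the gamma change was larger than in the main fit at both limits.

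**Figure D1:**
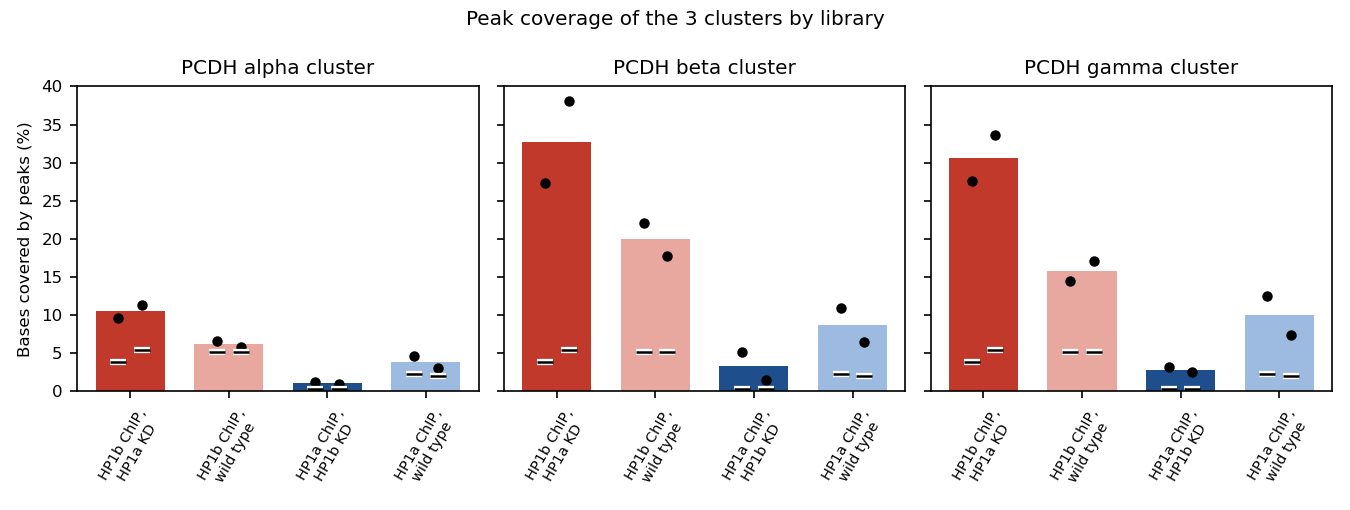
Percent of bases covered by peaks (y axis) in the merged alpha, beta and gamma protocadherin genes, for the 4 groups (x axis), KD meaning knockdown. Bars are means, points the 2 libraries, and short lines the covered percent of the whole genome in each library. HP1b in the HP1a knockdown stands highest in every panel, with gamma at 27.6 and 33.6% against 14.4 and 17.1% in wild type.

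The gain was spread over many genes and was most common among the A- and B-type genes of the gamma cluster. Over own intervals, both HP1a-knockdown libraries lay above both wild-type libraries at 29 of the 53 genes and below them at 1. As background, 10.3% of the 12363 genes covered in 2 or more of the 4 libraries were higher in that sense and 41.8% lower. In windows of 6 kb, closer to the size of an own interval, 17.2% were higher and 25.6% lower. The members higher in this way were 8 of the 13 numbered alpha genes, 5 of 16 beta genes, 15 of the 19 gamma A- and B-type genes and 1 of the 5 C-type genes. The own intervals of 52 of the 53 genes held a peak in 2 or more of the libraries. PCDHA3, PCDHA5 and PCDHB8, counted among the 29, did so through the knockdown alone and could only be higher.

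PCDHGB3 was the gamma gene most covered by wild-type HP1b, and its own interval was 81.2 and 66.2% covered in the HP1a knockdown, against 53.7 and 39.9% in wild type. PCDHGA3 was 50.7 and 67.5% covered in the knockdown, against 28.9 and 26.0% in wild type. PCDHGB7, another gene near the top of the wild-type HP1b order, had 49.9 and 53.4% in the knockdown and 47.3 and 40.0% in wild type. The knockdown libraries lay above the wild-type libraries at all 3 genes, although the margin at PCDHGB7 was narrow. PCDHGA4, among the gamma genes most covered by wild-type HP1a, had 49.3 and 64.4% of its interval under HP1b in the knockdown, against 22.9 and 24.0% in wild type. PCDHGB1, the other such gene, had 37.5 and 45.2% in the knockdown and 15.1 and 42.4% in wild type, so its groups overlapped. PCDHGA1, the first gene of the cluster, had 20.4 and 44.5% in the knockdown, against 8.83 and 11.0% in wild type.

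Among the alpha genes, PCDHA10 was 31.4 and 32.5% covered by HP1b in the HP1a knockdown, against 21.6 and 21.7% in wild type, without overlap. PCDHA1, the first gene, had 29.9 and 18.7% in the knockdown and 24.1 and 13.8% in wild type, and its groups overlapped. PCDHA7 had 3.44 and 13.5% in the knockdown and 15.6 and 7.52% in wild type, also with overlap. PCDHA13, the alpha gene most covered by wild-type HP1a, had 9.22 and 9.88% under HP1b in the knockdown and 9.63 and 12.7% in wild type. The gain in the alpha cluster was thus uneven from gene to gene. At PCDHA3, PCDHA5 and PCDHB8, singled out after their values were seen, no HP1b peak was listed in either wild-type library. PCDHA3 had 13.2 and 19.98% in the knockdown, PCDHA5 13.4 and 18.3%, and PCDHB8 35.5 and 22.1%.

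The beta genes most covered by wild-type HP1b had overlapping groups. PCDHB3 was 35.9 and 50.5% covered in the HP1a knockdown and 44.1 and 39.5% in wild type. PCDHB5 was 40.6 and 43.6% covered in the knockdown and 42.6 and 39.9% in wild type. PCDHB16 had 16.1 and 60.8% in the knockdown and 46.5 and 28.7% in wild type. At none of these 3 genes did the knockdown libraries stand apart. PCDHB4 (39.5 and 25.2% in the knockdown, 17.4 and 38.2% in wild type), PCDHB11 (44.4 and 72.8%, against 47.1 and 17.8%), PCDHB1 (14.3 and 32.3%, against 2.38 and 16.1%) and PCDHB15 (32.3 and 36.4%, against 42.2 and 15.6%) overlapped as well.

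**Figure D2:**
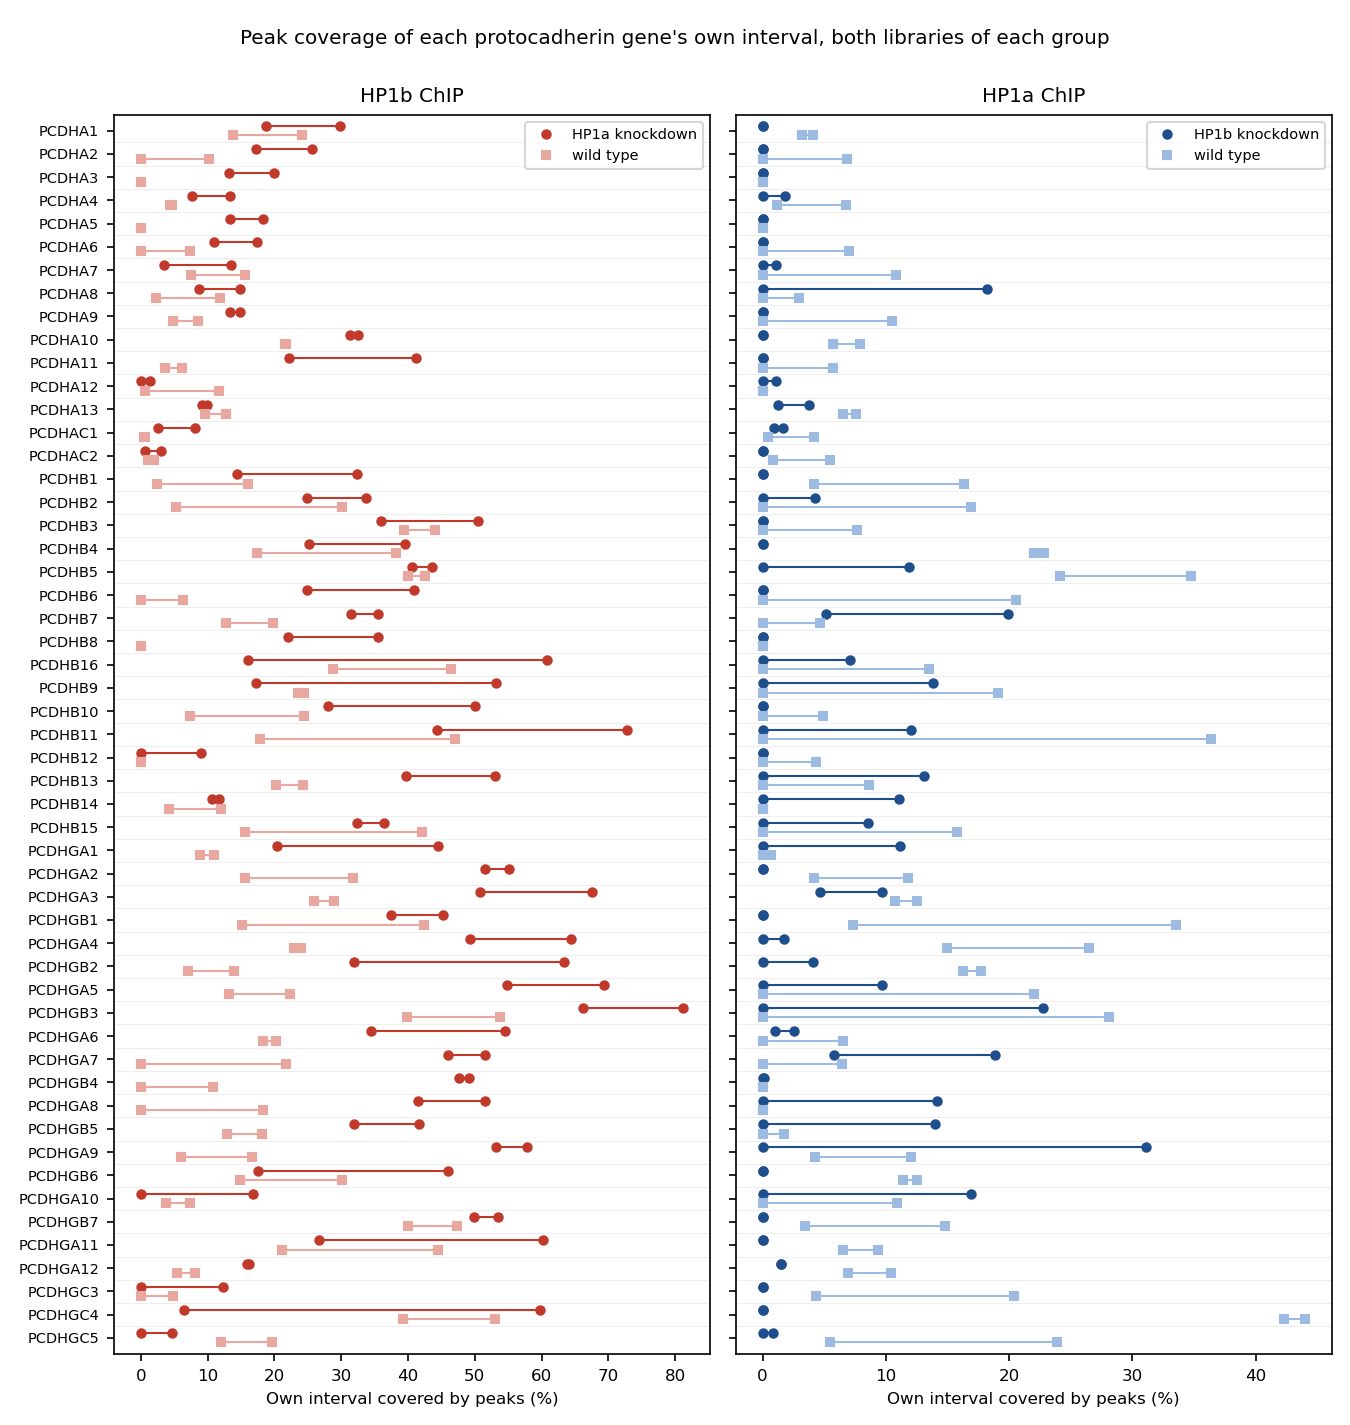
Percent of each gene's own interval covered by peaks (x axis) for the 53 genes in chromosome order (y axis), with HP1b ChIP on the left and HP1a ChIP on the right. Circles are knockdown libraries and squares wild-type libraries, with a line joining both libraries of a group. On the left, 15 of the 19 gamma A- and B-type genes have both circles to the right of both squares.

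With 1 kb added on either side of the gene bounds, HP1b peaks of both wild-type libraries were kept in both HP1a-knockdown libraries at 49 of 50 members, against 63.6% of 11100 genes. None of the 50 was lost, against 14.2%, and the 1 member with no wild-type peak gained none, against 4.21%. In the same bounds, the ZNF (zinc-finger) genes on chromosome 19 kept such peaks at 220 of 229 genes (96.1%) and lost them at 4. The olfactory receptor genes kept them at 51 of 89 (57.3%) and lost them at 16. A kept share well above that of all genes was thus not particular to the protocadherins. In these bounds 1 peak near the shared end of the alpha or gamma cluster counts for every gene there. Over own intervals without flanks, 39 of 42 members kept a peak, against 64.7% of 10508 genes without flanks. None was lost, against 13.5%, and 3 of the 4 members with no wild-type peak gained one, against 3.31%.

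Gene by gene over full gene bounds, limma called none of the 52 members fitted in this comparison. It also called 0.0% of all 12363 genes in either direction, and 3065 genes had an unadjusted p below 0.05. Of the 52 members, 27 had an unadjusted p below 0.05, but alpha and gamma genes share most of their bases and are not separate measurements. The members' median log2 change was 0.71, against -0.47 over all genes fitted. By cluster the median was 0.70 for alpha, 0.85 for beta and 0.78 for gamma. Over own intervals limma called none either. There 11 of 52 members, 1 of them lower, had an unadjusted p below 0.05. Among all 12363 features in that fit 3047 did, so the members' share was no larger. PCDHA3, PCDHA5 and PCDHB8 were among those members. With no wild-type peak listed, they passed the filter through the knockdown alone and could only rise, and their fitted values depend on the pseudocount.

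The C-type genes varied among themselves, with 1 of 5 higher, 1 lower and 3 overlapping. Among windows of 6 kb, 17.2% were higher and 25.6% lower in this comparison. PCDHGC5, the last gene, was 0 and 4.60% covered by HP1b in the HP1a knockdown, against 12.0 and 19.6% in wild type. It was the only member where both knockdown libraries lay below both wild-type libraries. PCDHGC4 was 6.39 and 59.8% covered in the knockdown, against 53.1 and 39.2% in wild type, with the knockdown libraries on either side. PCDHGC3 had 0 and 12.4% in the knockdown and 4.79 and 0% in wild type. PCDHAC1 had 2.51 and 8.07% in the knockdown, against 0.592 and 0.416% in wild type, without overlap but at low levels. PCDHAC2 had 3.05 and 0.610% in the knockdown and 1.94 and 1.05% in wild type. Whether C-type and other genes differ in their response was not tested.

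HP1b peaks sat just inside the starts of the genes. In the first kb of the 53 genes, HP1b covered a mean of 53.8 and 62.5% in the HP1a knockdown, against 40.7 and 35.4% in wild type. In the kb before the start it covered 10.8 and 9.76% in the knockdown, against 2.30 and 5.91% in wild type. Coverage thus stepped up at the gene start in all 4 HP1b libraries. Over the 15812 protein-coding genes with a known strand, the first kb was 1.23 and 2.59% covered in the knockdown and 2.09 and 2.45% in wild type. Their kb before the start was 1.47 and 2.74% covered in the knockdown and 2.49 and 3.36% in wild type, so the mean over all genes had no such step.

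The step was seen in each cluster once the C-type genes were left out. The first kb of the 13 numbered alpha genes was 42.3 and 52.3% covered by HP1b in the HP1a knockdown, against 38.6 and 23.2% in wild type. For the 16 beta genes it was 53.8 and 67.9% in the knockdown, against 45.8 and 44.5% in wild type. For the 19 gamma genes it was 75.9 and 76.1% in the knockdown, against 45.5 and 42.9% in wild type. In the gamma cluster 19 and 18 of the 19 genes had an HP1b peak in their first kb in the knockdown, against 13 and 14 in wild type. The gain in gamma also reached back before the starts, where the preceding kb was 24.98 and 17.99% covered in the knockdown, against 4.61 and 4.64% in wild type. It was present in the second kb too, at 70.6 and 80.3% in the knockdown, against 28.5 and 30.9% in wild type. The 5 C-type genes had 0 and 20.4% in the first kb in the knockdown, against 11.7 and 9.48% in wild type, with overlapping groups. In the 47 promoter windows matched above, 23 and 19 held an HP1b peak in the knockdown, against 12 and 15 in wild type. Peaks were not counted over all promoters, so these counts have no background beside them.

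HP1a had a step of the same direction at lower coverage. The first kb of the 53 genes was 8.22 and 6.37% covered by HP1a in HP1b-knockdown cells, against 20.3 and 12.7% in wild type. The kb before was 0.147 and 0.692% covered in the knockdown, against 0.943 and 1.54% in wild type. At the 16 beta genes, the second HP1b-knockdown library had no HP1a peak in either kb. The first exons of these genes are similar in sequence, and how reads with several equal matches were placed is not given in the sources used here. Their part in the step was not tested.

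**Figure D3:**
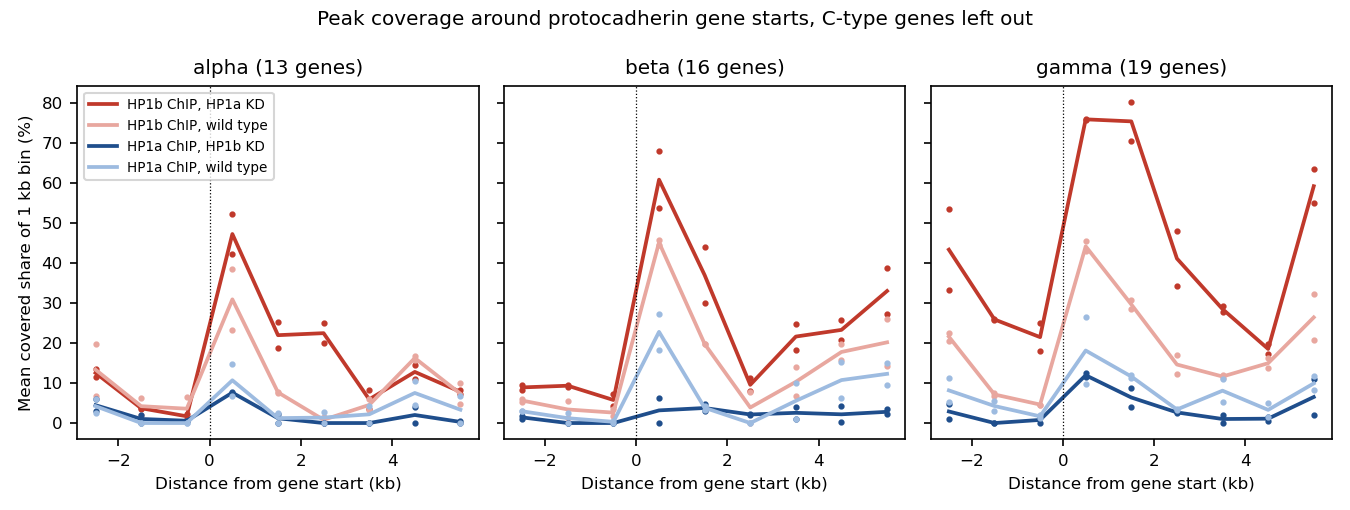
Mean percent covered by peaks (y axis) in 1 kb bins around the start of the gene (x axis, kb), for 13 alpha, 16 beta and 19 gamma genes, C-type genes left out. Lines are group means and points the 2 libraries, and KD means knockdown. HP1b in the HP1a knockdown reaches 75.9 and 76.1% in the first kb of the gamma genes, against 45.5 and 42.9% in wild type.

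The gain in HP1b did not extend 1 Mb to either side of the locus. In the 1 Mb after the gamma cluster HP1b covered 2.82 and 6.59% in the HP1a knockdown, against 11.9 and 14.9% in wild type. In the 1 Mb before PCDHA1 it covered 5.38 and 8.24% in the knockdown, against 8.53 and 9.38% in wild type. Both flanks of 1 Mb thus lay lower in the knockdown, in the opposite direction to the clusters. The 200 kb next to PCDHA1 were an exception, at 13.3 and 12.3% in the knockdown, against 11.2 and 9.93% in wild type. The 132.7 kb of spaces between beta genes were 13.2 and 14.9% covered in the knockdown, against 10.6 and 9.01% in wild type. The 81.1 kb between the beta and gamma clusters were the most covered of the stretches measured, at 55.4 and 45.1% in the knockdown and 51.3 and 49.5% in wild type, with overlap. That stretch holds SLC25A2, which encodes a mitochondrial ornithine carrier, and TAF7, which encodes a subunit of the general transcription factor TFIID. SLC25A2 was 83.1 and 100% covered by HP1b in the knockdown and 56.5 and 86.7% in wild type, and TAF7 was 100 and 73.4% covered in the knockdown, against 66.1 and 63.4% in wild type.

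**Figure D4:**
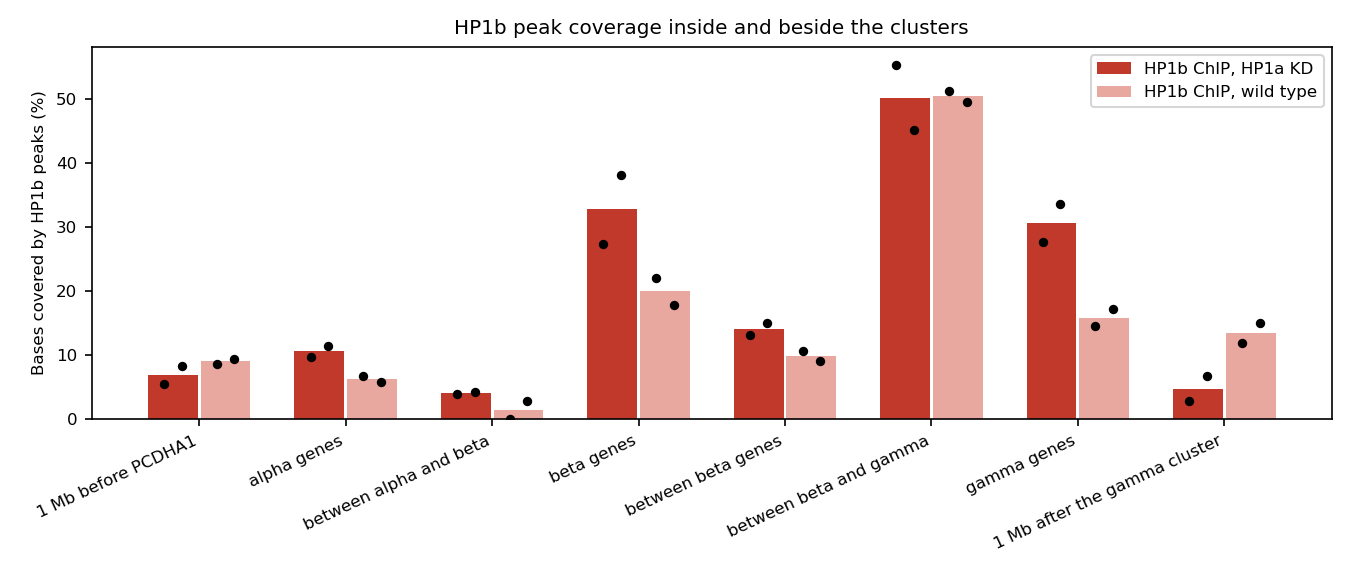
Percent of bases covered by HP1b peaks (y axis) in the clusters, the spaces between them and 1 Mb on either side (x axis), in chromosome order except that the spaces between beta genes follow the beta genes. Bars are means and points the 2 libraries, KD meaning knockdown. The clusters stand higher in the HP1a knockdown, whereas the 1 Mb after the gamma cluster is at 2.82 and 6.59%, against 11.9 and 14.9% in wild type.

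HP1b peaks in the clusters often recurred between replicates. The clusters held 95 and 108 HP1b peaks in the HP1a knockdown, against 76 and 73 in wild type. Their median width was 763 and 762.5 bases in the knockdown, against 651.5 and 538 bases in wild type. Over whole libraries it was 573 and 553 bases in the knockdown, against 533 and 530 bases in wild type, so the second wild-type library differed little. Of these peaks, 75.8 and 63.9% met a peak of the other replicate in the knockdown, against 53.9 and 54.8% in wild type. Over whole libraries the same share was 48.7 and 34.1% in the knockdown, against 35.1 and 35.2% in wild type. The widest peak in the first knockdown library spanned 3414 bases at PCDHGB2 and PCDHGA5 (chr5:141364118-141367531), with the authors' fold enrichment of 2.99. The widest in the second spanned 3245 bases at PCDHGA5 and PCDHGB3 (chr5:141369413-141372657), with a fold enrichment of 3.23.

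HP1a covered less of the clusters in HP1b-knockdown cells than in wild-type cells, as it did across the genome. The alpha region was 1.17 and 1.01% covered in HP1b-knockdown cells, against 4.63 and 3.12% in wild type. The beta genes were 5.22 and 1.49% covered in the knockdown, against 10.9 and 6.49% in wild type. The gamma region was 3.20 and 2.53% covered in the knockdown, against 12.5 and 7.43% in wild type. The groups did not overlap in any cluster, and HP1a peaks covered 0.326 and 0.320% of the genome in the knockdown, against 2.31 and 1.996% in wild type. The weakest peak had a −log10 p of 3.43 in each knockdown list, against 2.75 and 2.80 in wild type, so these lists stopped at different strengths.

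Relative to the covered total of each library, none of the clusters passed the test. The limma log2 change was 0.84 ± 0.31 for alpha (adjusted p = 0.180), 1.00 ± 0.67 for beta (adjusted p = 0.415) and 0.92 ± 0.28 for gamma (adjusted p = 0.125). With no scaling to the total, the signs turned, to -1.65 for alpha, -1.52 for beta and -1.70 for gamma. In the scaled fit 2.0% of 13925 features were called higher and 13.6% lower. Per Mb of covered total, the gamma cluster held 591 and 476 bases in HP1b-knockdown cells, against 327 and 224 in wild type, and the alpha cluster 268 and 237 bases, against 150 and 117. The beta genes held 345 and 101 bases in the knockdown and 102 and 70.2 in wild type, with overlap. The direction thus depended on the scale.

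PCDHB4 was the one member called over gene bounds (limma log2 change -1.87 ± 0.20, adjusted p = 0.0240), of 47 fitted, against 29.1% of 8504 genes called lower and 1.76% called higher. It is a single-exon beta gene at chr5:141121818-141125623, listed at 0 in both HP1b-knockdown libraries, against 22.9 and 21.99% in wild type. Because it is listed at 0, the fitted change depends on the pseudocount and is no bound, and with the pseudocount multiplied by 4 no gene at all was called (0 of 8504, of which 3338 had an unadjusted p below 0.05). Its call was also lost without HP1b-knockdown replicate 1 (limma, adjusted p = 0.0714) and without replicate 2 (adjusted p = 0.0745). Over own intervals 6 of 38 fitted members fell, fewer than the 29.2% of all 8495 features called lower in that fit (1.79% higher). They were PCDHA1, PCDHA10, PCDHB4, PCDHGB6, PCDHGA11 and PCDHGC4, each listed at 0 in both knockdown libraries. They thus passed the filter of 2 or more covered libraries through wild type alone and could only fall. Their fitted sizes, errors and p-values also depend on the pseudocount. PCDHGC4 had the highest wild-type HP1a coverage of the gamma cluster, 44.0 and 42.3%. With these limits, limma gave it a log2 change of -2.69 ± 0.34 over its own interval (adjusted p = 0.0239).

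Across the 53 own intervals, both HP1b-knockdown libraries lay below both wild-type libraries at 19 genes and above them at 1, PCDHB7. Among all genes covered in 2 or more of the 4 libraries 79.5% were lower in this sense and 1.45% higher, and in windows of 6 kb 69.8 and 2.19%. Only 38 members had own intervals covered in 2 or more of these libraries, so the members' share is not one of all that could be lower. PCDHB7 had 19.9 and 5.11% under HP1a in the knockdown, against 4.65 and 0% in wild type. PCDHB5, the beta gene most covered by wild-type HP1a, had 11.9 and 0% in the knockdown, against 24.1 and 34.8% in wild type. PCDHB11 had 12.0 and 0% in the knockdown and 36.3 and 0% in wild type, so its wild-type level rested on 1 library. Of the C-type genes, 4 of 5 were lower without overlap, and PCDHGC5 had 0.833 and 0% in the knockdown, against 23.8 and 5.45% in wild type.

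The count of genes without HP1a in the HP1b knockdown depended on the bounds used. Over gene bounds with 1 kb on either side, 42 members had a peak in both wild-type HP1a libraries, and 4 of them had none in either HP1b-knockdown library, against 47.0% of 7945 genes. A peak in both knockdown libraries was kept at 34 of the 42, against 21.7%, and none was gained at the 1 member without a wild-type peak, against 0.728% of such genes. Over own intervals without flanks, 22 members had a peak in both wild-type libraries and 12 of them had none in the knockdown, against 46.5% of 7631 genes without flanks. Over gene bounds a peak near the end of the alpha or gamma cluster counts for every gene of that cluster. The few peaks left in the knockdown did not recur. The clusters held 23 and 14 HP1a peaks in HP1b-knockdown cells, against 69 and 50 in wild type. None of the knockdown peaks met a peak of the other replicate (0% in both libraries), against 26.1 and 34% in wild type. In whole HP1b-knockdown libraries that share was 6.21 and 6.38%.

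In wild-type cells HP1b covered more of the clusters than HP1a, but not a larger part of its own total. The wild-type libraries are the same as those used above. The 2 ChIPs target different proteins, so a difference between proteins cannot be told apart from one between antibodies. The weakest peak had a −log10 p of 2.55 and 2.54 in HP1b, against 2.75 and 2.80 in HP1a. The 3 clusters together were 11.8 ± 0.0130% covered by HP1b and 6.89 ± 2.33% by HP1a (SD, n = 2 each), and the exact permutation p of 0.3333 is the smallest that 2 libraries against 2 can give. In limma the log2 change of HP1b over HP1a was -0.49 ± 0.27 for alpha (adjusted p = 0.476), -0.04 ± 0.30 for beta (adjusted p = 0.973) and -0.53 ± 0.24 for gamma (adjusted p = 0.361). None of 14124 features was called in this comparison (0.0% higher and 0.0% lower), with 1813 at an unadjusted p below 0.05. The same fit over gene bounds called none of 51 members and none of 12350 genes, of which 15 and 1587 had an unadjusted p below 0.05. At 21 of 53 own intervals both HP1b libraries lay above both HP1a libraries and at 1, PCDHGB2, below, against 58.8 and 2.87% of all genes covered in 2 or more of these libraries, and 42.9 and 5.12% of windows of 6 kb. Over gene bounds with 1 kb on either side, 41 of the 42 members with a peak in both HP1a libraries had one in both HP1b libraries, against 92.0% of genes. None of them lacked a peak in both HP1b libraries, against 1.47%, and the 1 member free of HP1a had HP1b peaks, against 17.9%.

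The same genes were not always the most covered in both ChIPs. PCDHGC4 ranked high for both, with 53.1 and 39.2% under HP1b and 44.0 and 42.3% under HP1a in wild type. PCDHB3 was 44.1 and 39.5% covered by HP1b but 7.66 and 0% by HP1a. PCDHGB2 had 14.0 and 7.10% under HP1b and 16.3 and 17.7% under HP1a. PCDHA10 had 21.6 and 21.7% under HP1b, against 5.68 and 7.93% under HP1a.

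The difference between both knockdown effects was tested in 1 fit over all 8 libraries. Relative to each library's total, the HP1b change in the HP1a knockdown minus the HP1a change in the HP1b knockdown had a log2 value of -0.03 ± 0.42 for alpha (adjusted p = 0.979), -0.26 ± 0.74 for beta (adjusted p = 0.895) and 0.13 ± 0.36 for gamma (adjusted p = 0.887), by limma. That fit called none of 14168 features, with 2794 at an unadjusted p below 0.05.

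The 12 non-clustered protocadherins, among them PCDH7, PCDH9 and PCDH10, were a median of 1.20 and 1.403% covered by HP1b in the HP1a knockdown, against 2.30 and 2.16% in wild type. The levels varied within the list, and 2 genes, named after their values were seen, were more covered in wild type than the alpha cluster. PCDH1 had 0 and 5.01% in the knockdown, against 13.2 and 13.1% in wild type, and PCDH12 had 0 and 6.28% in the knockdown, against 18.3 and 11.2% in wild type. The list's median log2 change in limma was -0.25 over the 10 fitted, and none was called in that comparison. In HP1a ChIP 2 of 8 fitted were called lower in the HP1b knockdown, a share close to the 29.1% of all genes. The 13 genes whose products are known to act on the clusters, such as CTCF and the cohesin subunits RAD21 and SMC3, which shape promoter choice, and SETDB1, a histone H3 methyltransferase, were a median of 0 and 0.815% covered by HP1b in the knockdown, against 1.17 and 1.14% in wild type. None of their 8 fitted genes was called in HP1b ChIP, and 3 of 8 were called lower in HP1a ChIP, against the same 29.1% of all genes. Of the 24 neighbours within 300 kb, 11 were fitted in HP1b ChIP and none was called. In HP1a ChIP 1 of 8 fitted neighbours was called lower, against the same 29.1%. The HP1b fit called 0 of all 12363 genes, so the lack of calls there tells nothing about these lists.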

How the data were processed

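HP1a and HP1b ChIP-seq of MCF10A cells gave 8 peak lists in 4 groups of 2. Per the submitters' processing notes, Trimmomatic, Bowtie2, SAMtools and MACS3 were used on hg38; their versions and settings, and how reads with several matches were placed, are not stated there. The files hold coordinates, a score, the authors' fold enrichment, a ratio of signal to background, and −log10 p and −log10 q, all as deposited by the authors. Gene bounds came from RefSeq (GRCh38.p14). Overlapping gene bounds and peaks were merged before bases were counted.

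Covered bases per Mb of a library's covered total were tested with limma 3.58.1 in R 4.3.3 on log2(value + pseudocount), the pseudocount being the 10th percentile of values above 0. Features had to be covered in 2 or more of the 4 libraries compared. For the difference between both knockdown effects this was 2 or more of all 8 libraries. The threshold was an adjusted p below 0.05. The fitting code was run on simulated data with known changes first. A gene was lost if both wild-type libraries and neither knockdown library had a peak there. The members, lists and tests were chosen with earlier results of these data known. Named genes were the 3 in each cluster most covered by wild-type HP1a and by wild-type HP1b, the C-type genes, PCDHB1, the first and last gene of each cluster and those past the threshold. PCDHA3, PCDHA5, PCDHB7, PCDHB8, PCDHGA3, PCDHGA11, PCDHGB2 and PCDHGB6 were named after their values were seen.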

Additional observations from a re-analysis of the deposited data

Results flagged for a closer look

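The change of HP1b coverage in the HP1a knockdown and that of HP1a coverage in the HP1b knockdown went opposite ways in each cluster when covered bases were compared with no scaling to the library's total. The difference between both changes, on the log2 scale, was 2.27 ± 0.52 for alpha (SE, limma adjusted p = 0.00858), 2.16 ± 0.63 for beta (adjusted p = 0.0200) and 2.59 ± 0.45 for gamma (adjusted p = 0.00451), with n = 2 libraries in each of the 4 groups. In that unscaled fit 6121 of 14168 features were called higher and the median difference was 1.62, so a positive difference was seen widely over the genome. The opposite directions were not those of the median feature. With no scaling it had a log2 change of -2.40 in HP1a ChIP and -0.24 in HP1b ChIP, whereas the clusters rose in HP1b ChIP. Scaled to the covered total of each library, the difference was -0.03 for alpha, -0.26 for beta and 0.13 for gamma, and none passed the threshold.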

How the results depend on the processing

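HP1b changes in the HP1a knockdown kept their sign at each cluster under every alternative run, though not their call. The alpha log2 change was below the threshold at 0.66 with no scaling, 0.82 with no filter, 0.0024 with peaks of −log10 q of at least 2, 0.46 at −log10 p of at least 4, 0.72 with equal numbers of top peaks, 0.81 in a fit of all 8 libraries and 0.88 with windows of 100 kb. Gamma was below it at 1.06 with no filter, 1.85 and 1.88 with the q and p limits and 1.06 in the fit of 8. Beta passed at 0.54 with the pseudocount multiplied by 4. Leaving out 1 library gave 0.69 to 0.93 (alpha), 0.64 to 0.89 (beta), 0.95 to 1.18 (gamma).

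The other cluster contrasts turned with the scale. HP1a in the HP1b knockdown gave -1.65 (alpha), -1.52 (beta), -1.70 (gamma) with no scaling and -2.58 (alpha) with the q limit, and gamma passed the threshold at 0.92 in the fit of 8. Leaving out 1 library gave 0.68 to 0.99 (alpha), 0.20 to 1.81 (beta), 0.66 to 1.17 (gamma). HP1b over HP1a gave 0.61 (alpha), 1.16 (beta), 0.66 (gamma) with no scaling, 0.56 (alpha), 2.18 (beta), 1.78 (gamma) with the q limit, 0.82 (alpha) with the p limit and 0.37 (beta) with equal numbers of peaks, and -0.65 to -0.33 (alpha), -0.26 to 0.19 (beta), -0.79 to -0.28 (gamma) without 1 library. The difference of both effects gave 2.27 (alpha), 2.16 (beta), 2.59 (gamma) with no scaling, 3.20 (alpha), 1.84 (beta), -1.02 (gamma) with the q limit, 1.08 (beta) with the p limit, 0.19 (alpha), 1.19 (beta) with equal numbers of peaks, and -0.19 to 0.12 (alpha), -1.06 to 0.55 (beta), -0.12 to 0.39 (gamma) without 1 library. Scaling moved the median window from -2.40 unscaled to -0.59 in HP1a ChIP. The cause of the other changes was not tested.

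Members called lower in HP1a ChIP numbered 11 with no scaling, 0 with the larger pseudocount and 0 with no filter. They numbered 10 and 0 with the q and p limits, and 0 with equal numbers of peaks. The count was 2 in the fit of 8 and 6 over own intervals. In the fit of 8, 348 of 8504 genes were called higher and 2882 lower. Over all genes 4656 of 8504 were called lower with no scaling and 861 of 1149 with the q limit, so these larger counts are not particular to the members. Called higher were 6 in the fit of 8 and 0 to 28 without 1 library. In HP1b ChIP without 1 library 0 to 14 were called higher and 0 to 3 lower, and for HP1b over HP1a 0 to 0 higher and 0 to 20 lower. Groups share replicate numbers in the labels with no stated pairing, and deviations of same-numbered libraries correlated at 0.0221 (HP1a ChIP), 0.0470 (HP1b ChIP) and -0.0114 (HP1b over HP1a). With the replicate block, 7 members were called higher in HP1b ChIP (121 of all 12363 genes), 0 lower in HP1a ChIP (0 of all 8504 genes), and beta passed at 0.76.

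Members with lost HP1a peaks numbered 10 over own intervals with flanks of 1 kb. They numbered 10, 7 and 1 with the q limit, p limit and equal numbers, and 4 to 8 without 1 library. Apart from dropping the flank, these alternatives were not counted over all genes, so the members' counts here have no background. Kept were 0 when 10% of a gene had to be covered, 5 over own intervals, 0 and 22 with the q and p limits and 34 to 38 without 1 library, and gained 3 with equal numbers and 0 to 1 without 1 library. For HP1b in the HP1a knockdown, 1 was lost at 10% and 1 with equal numbers (0 to 1 without 1 library), 26, 9 and 29 were kept at 10%, the q and the p limit (49 to 50), and 1, 1, 2, 12 and 2 gained with no flank, a flank of 2 kb, 10%, the q and the p limit (0 to 1). For HP1b over HP1a, 2 and 1 were lost with the p limit and equal numbers (0 to 1), 3, 24 and 1 kept at 10%, over own intervals and with the q limit (41 to 46), and 3 and 2 gained at 10% and over own intervals (1 to 6).

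The covered share of all 3 clusters differed by -6.45 to -3.16 percentage points in HP1a ChIP, 7.24 to 11.83 in HP1b ChIP and 3.24 to 6.54 for HP1b over HP1a without 1 library, and by 1.15 in HP1a ChIP with equal numbers of peaks. Counts of own intervals without overlap were tried under alternatives chosen after seeing the data. The shares over all genes and windows were counted in the main setting only. The members' counts below thus have no background beside them and cannot be read as stronger or weaker than the main ones. HP1b in the HP1a knockdown gave 12 and 19 higher with the q and p limits, and 0, 0 and 4 lower with the q limit, p limit and equal numbers. HP1a in the HP1b knockdown gave 0 and 5 higher with the q limit and equal numbers, and 1, 5 and 3 lower with the q limit, p limit and equal numbers. HP1b over HP1a gave 2 and 3 higher, and 0, 5 and 4 lower, in the same order. With 1 library fewer to separate, the counts were 34 to 41 higher and 3 to 8 lower, 2 to 9 higher and 19 to 31 lower, and 26 to 32 higher and 3 to 10 lower, for the 3 comparisons in that order. The step at gene starts kept its sign in every group under these alternatives. Read depth is unknown, so coverage without a peak sets no lower limit.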
